A study of Rattus norvegicus with 9 samples.

Results

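Genes of the complement cascade were followed across the study, the chains C1qa, C1qb and C1qc of C1q and the component C3, taken by their rat Ensembl identifiers (ENSRNOG00000012807, ENSRNOG00000012804, ENSRNOG00000012749 and ENSRNOG00000046834). They are 4 of the 32623 genes in the count table, and 4 of 4 passed the filter on low counts that left 15402 genes for testing. The table holds identifiers only, and the reference gene table used here lists an Ensembl identifier for 0 of its 47357 genes. The symbols are therefore those under which the 4 identifiers were selected, and they were not checked against an annotation.

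Complement is a cascade of blood and tissue proteins that marks targets for removal. C1q is its recognition molecule in the classical pathway. It is built from equal numbers of A, B and C chains, each with a collagen-like stalk and a globular head, and it binds antibody complexes, dying cells and, in mice, synapses that are to be removed. Bound C1q activates the proteases C1r and C1s, which lead to a convertase that cleaves C3, the protein on which all complement pathways meet. C3b then coats the target for uptake by phagocytes, and C3a acts as a signal through its own receptor. In mouse brain C1q comes mainly from microglia, and C3 is made by reactive astrocytes and by phagocytes.

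The samples were brain tissue of rats, in 3 groups of 3 libraries each. All groups had the same modelling step, which the labels do not describe, and an injection 4.5 h after it. The groups are named Nano-patrol+NIR, rt-PA and saline, and tissue was taken 3 days after the injection. The sources used here give no strain, age, brain region or hemisphere. rt-PA is recombinant tissue plasminogen activator, which dissolves clots by turning plasminogen into plasmin. The count columns of that group carry another name, uk, and which agent was given was not resolved. Nano-patrol+NIR is one of the thrombolysis treatments in the series title and is not described further. No group without the modelling step, and none given Nano-patrol or NIR alone, was analysed here. The libraries are named below by group and replicate number.

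Libraries held 13059048 to 14992109 counts. Values are counts scaled to a common library total (CPM) with TMM, a correction for differences in library composition. In each group 1 library stood apart from the other 2 over all tested genes. The alike pairs correlated at 0.985 (Nano-patrol+NIR 1 and 2), 0.984 (rt-PA 1 and 2) and 0.99 (saline 2 and 3) on log2 CPM. The libraries Nano-patrol+NIR 3, rt-PA 3 and saline 1 correlated with their groups at 0.896 to 0.944. The correlations run across genes, and genes are no replicates. Results for the complement genes are given with and without these 3 libraries. Whether the libraries of a group are from different animals is not stated. The p-values thus cover the spread between these libraries only, and that spread may be technical. Cell type markers could not be looked up by symbol, and the labelled tissue was not checked.

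The promoters are shown because 2 of the chains, C1qa and C1qb, belong to 1 cluster of genes and yet ordered the 9 libraries differently, as described below. Whether the promoters have a part in that difference was not tested. In the RefSeq gene table for the assembly GRCr8, the protein-coding genes C1qb, C1qc and C1qa follow one another on chromosome 5, and C3 lies on chromosome 9. The 250 bases before the annotated start, from RefSeq on GRCr8, were at chr5:154419934-154420183 for C1qa, chr5:154407828-154408077 for C1qb and chr9:2201340-2201589 for C3, each on the minus strand and written 5′ to 3′ in the direction of transcription. Promoter sequences were found for 3 of the 4 genes, C1qc being the other. Capitals mark GGAAGT, on either strand, in C1qa and C1qb, and TTNNGNAA in C3.
C1qa: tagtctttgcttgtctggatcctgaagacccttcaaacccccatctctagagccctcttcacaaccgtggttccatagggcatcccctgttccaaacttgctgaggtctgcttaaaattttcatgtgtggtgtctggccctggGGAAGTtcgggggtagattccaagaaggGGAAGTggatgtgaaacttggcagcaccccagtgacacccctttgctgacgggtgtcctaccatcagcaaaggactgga
C1qb: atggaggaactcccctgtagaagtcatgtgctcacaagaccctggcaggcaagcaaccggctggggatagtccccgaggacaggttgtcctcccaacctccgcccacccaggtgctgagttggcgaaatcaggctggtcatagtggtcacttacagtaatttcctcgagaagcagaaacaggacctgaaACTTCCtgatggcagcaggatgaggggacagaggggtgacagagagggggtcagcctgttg
C3: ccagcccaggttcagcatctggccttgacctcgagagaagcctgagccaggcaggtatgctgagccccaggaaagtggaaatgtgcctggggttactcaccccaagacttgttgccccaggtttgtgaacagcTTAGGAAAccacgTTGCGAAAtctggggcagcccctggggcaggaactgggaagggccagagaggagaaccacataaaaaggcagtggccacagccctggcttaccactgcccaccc

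GGAAGT is a core sequence bound by ETS factors such as PU.1, a regulator of microglia and macrophages. It occurred 2 times in the C1qa promoter, 107 and 79 bases before the start, and 1 time in the C1qb promoter, 61 bases before the start on the opposite strand. It occurred 0 times in that of C3. Of 33469 promoters of the same length, 19.2% held it on either strand. TTNNGNAA, a form of the C/EBP site, was found in the C3 promoter at 117 and 104 bases before the start, the second on both strands, and in neither C1q promoter. Of all promoters 37.2% held it. TATAAA, an exact form of the TATA box (12.9% of promoters), was in none of the 3 windows, and other forms of the box were not searched. These motifs were picked with the sequences in view, and a match is a description of the letters only.

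C1qa had its highest group mean after Nano-patrol+NIR. Its levels were 79.2, 81.4 and 89 CPM in Nano-patrol+NIR 1, 2 and 3, 70.1, 72.4 and 55.5 CPM in rt-PA 1, 2 and 3, and 86.6, 58.2 and 65.5 CPM in saline 1, 2 and 3. Each Nano-patrol+NIR library lay above each rt-PA library, whereas saline 1 lay among the Nano-patrol+NIR libraries and the other saline libraries lay below them. The means were 83.2 ± 5.17 CPM in Nano-patrol+NIR, 66 ± 9.17 CPM in the rt-PA libraries and 70.1 ± 14.7 CPM in the saline libraries (SD, n = 3 each). In bulk tissue, more cells of a type and more RNA per cell cannot be told apart, and this holds for all values below.

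C1qb, the B chain, had another order, with rt-PA 1 and rt-PA 2 highest. It reached 46.8, 47.6 and 56.9 CPM in Nano-patrol+NIR 1, 2 and 3, 66.5, 82.7 and 45.9 CPM in rt-PA 1, 2 and 3, and 47.6, 36.6 and 42.9 CPM in saline 1, 2 and 3. The library rt-PA 3 lay inside the saline range, so those groups overlapped. The group means were 50.4 ± 5.61 CPM in Nano-patrol+NIR, 65 ± 18.5 CPM in the rt-PA libraries and 42.4 ± 5.54 CPM in the saline libraries (SD, n = 3 each).

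C1qc, the C chain, ordered the 9 libraries as C1qb did. Its levels were 45.9, 46.5 and 57.8 CPM in Nano-patrol+NIR 1, 2 and 3, 62.5, 71.2 and 44.2 CPM in rt-PA 1, 2 and 3, and 49.9, 35.2 and 36 CPM in saline 1, 2 and 3. Again rt-PA 1 and rt-PA 2 were above all other libraries, and rt-PA 3 was within the saline range. Means were 50.1 ± 6.74 CPM in Nano-patrol+NIR, 59.3 ± 13.8 CPM in the rt-PA libraries and 40.4 ± 8.24 CPM in the saline libraries (SD, n = 3 each).

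C3 varied most among the 4 genes. It was measured at 12.8, 9.86 and 38.7 CPM in Nano-patrol+NIR 1, 2 and 3, at 31.6, 40 and 14 CPM in rt-PA 1, 2 and 3, and at 28.3, 10.2 and 8.53 CPM in saline 1, 2 and 3. Every group held both low and high libraries, and all groups overlapped. The means of 20.4 ± 15.9 CPM in Nano-patrol+NIR, 28.5 ± 13.3 CPM in the rt-PA libraries and 15.7 ± 11 CPM in the saline libraries (SD, n = 3 each) had SDs of 0.465 to 0.777 times the mean.

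**Figure D1:**
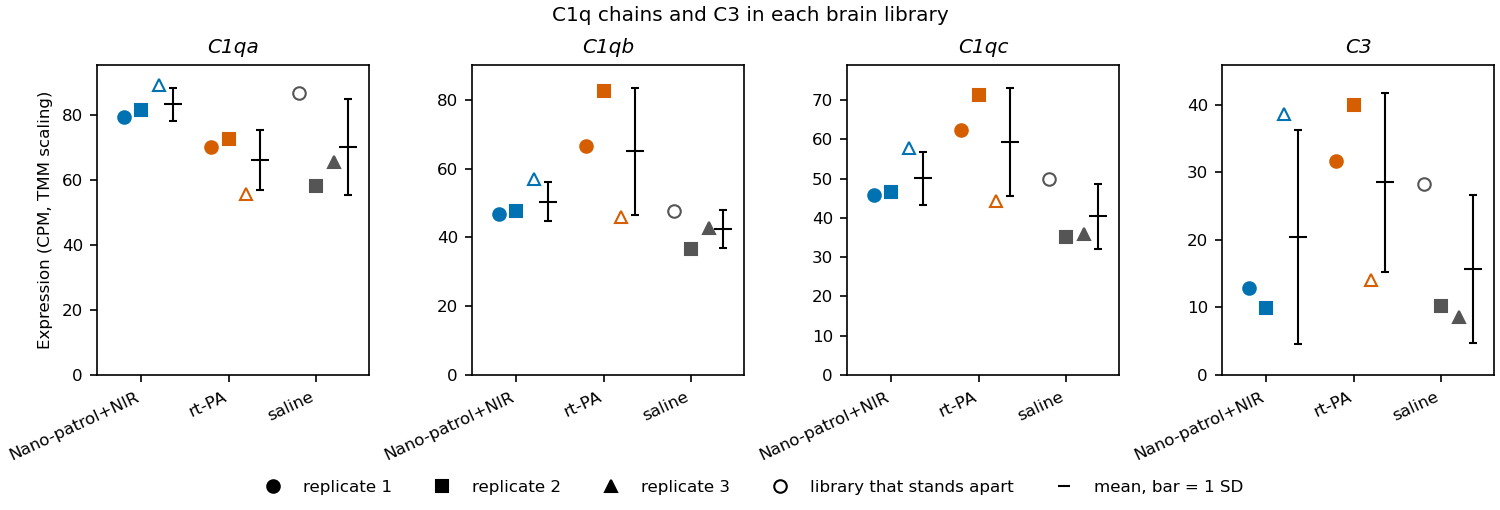
Expression in CPM (vertical axes, from 0) of C1qa, C1qb, C1qc and C3 in the 9 libraries by group, with the group mean and a bar of 1 SD; open symbols are Nano-patrol+NIR 3, rt-PA 3 and saline 1. C1qa is separate between Nano-patrol+NIR (79.2 to 89 CPM) and rt-PA (55.5 to 72.4 CPM), while the open symbols of C3 lie far from the filled ones of their group.

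The spread followed the libraries that stood apart. C3 in Nano-patrol+NIR 3 was 3.42 times the mean of Nano-patrol+NIR 1 and 2, in rt-PA 3 it was 0.391 times the mean of rt-PA 1 and 2, and in saline 1 it was 3.01 times the mean of saline 2 and 3. The C1q chains moved the same way in these libraries by smaller factors, at 1.11 to 1.25 times in Nano-patrol+NIR 3, 0.614 to 0.779 times in rt-PA 3 and 1.2 to 1.4 times in saline 1. The SD of C3 within groups was 0.92 on the log2 scale. Of the 4949 genes within 2-fold of its mean CPM, 94.2% had a smaller one, and their median was 0.31. The SDs of C1qa (0.21), C1qb (0.29) and C1qc (0.28) were near the median, 0.27 for each, of genes of their level. The part of these libraries' other differences in the C3 spread was not tested.

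Nano-patrol+NIR was set against saline first, to ask how the complement genes stood after that treatment. None of the 4 passed an adjusted p of 0.05 in edgeR's quasi-likelihood test, where 1 of all tested genes (0.00649%) did. C1qa was 1.19-fold (log2 0.25, SE 0.18, 95% interval -0.17 to 0.66, edgeR adjusted p = 1). The same fold of 1.19 was found for C1qb (95% interval of the log2 fold change -0.26 to 0.76), and C1qc was 1.24-fold (-0.19 to 0.82). For C3, the fold of 1.3 had a log2 interval of -1.1 to 1.86. All 4 fold changes were above 1, and all 4 intervals covered both directions. In 0 of the 4 genes did the groups separate, whereas 7.62% of tested genes had every Nano-patrol+NIR library above every saline library and 6.86% had them all below. Without Nano-patrol+NIR 3 alone the log2 fold change of C3 was -0.48, so its direction rested on that library. Without all 3 libraries that stood apart, C1qa was 1.3-fold (80.3 CPM after Nano-patrol+NIR and 61.8 CPM after saline, edgeR adjusted p = 0.0787), C1qc 1.3-fold (0.0992), C1qb 1.19-fold (0.368) and C3 1.21-fold (0.526), in a fit that called 3.27% of all genes.

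rt-PA against saline gave the largest differences for C1qb, C1qc and C3, and the smallest for C1qa. C1qb was 1.53-fold (log2 0.62, SE 0.22, 95% interval 0.11 to 1.12), with an unadjusted p of 0.0223 and an edgeR adjusted p of 0.219. C1qc was 1.47-fold (log2 0.55, SE 0.22, 95% interval 0.05 to 1.06), with an unadjusted p of 0.0352 and an edgeR adjusted p of 0.257. Of all tested genes 17% had an unadjusted p under 0.05, and 9.05% did so in the higher direction. C3 was 1.81-fold, with a wide log2 interval of -0.63 to 2.35 (edgeR adjusted p = 0.531). C1qa was 0.941-fold, and its log2 interval of -0.5 to 0.33 (edgeR adjusted p = 0.84) reached a 1.26-fold higher level in this fit. Its log2 fold change was above 0 in 3 of 18 alternatives, each with fewer libraries, so the interval is no firm bound. None of the 4 passed the threshold, which 0.00649% of tested genes did with edgeR. DESeq2 called 1062 genes and limma-voom 0 (2354 at an unadjusted p under 0.05), and neither called any of the 4. In 0 of the 4 did the groups separate (9.18% of tested genes higher in each rt-PA library and 10.3% lower).

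The rt-PA values depended on the libraries that stood apart. Without rt-PA 3 the adjusted p of C1qb was 0.0233 (log2 0.84), in a fit that called 13.5% of all genes, 8.32% as higher. Without rt-PA 3, saline 1 and Nano-patrol+NIR 3, the means were 74.6 CPM after rt-PA and 39.7 CPM after saline for C1qb, a 1.94-fold difference (edgeR adjusted p = 0.000437). For C1qc they were 66.9 CPM after rt-PA and 35.6 CPM after saline, also 1.94-fold (edgeR adjusted p = 0.000151). C3 was at 35.8 CPM after rt-PA and 9.39 CPM after saline, 3.94-fold (edgeR adjusted p = 5.7e-05). C1qa was at 71.2 CPM after rt-PA and 61.8 CPM after saline, 1.19-fold (edgeR adjusted p = 0.0701), so its direction turned. That fit, with 2 libraries per group chosen for their likeness, called 43.8% of all tested genes, 23.4% as higher and 20.4% as lower in rt-PA, so calls in it were common. Its p-values are too small, since the libraries farthest from their groups were removed.

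Nano-patrol+NIR was then compared with rt-PA. C1qa was 1.26-fold (log2 0.33, SE 0.18, 95% interval -0.08 to 0.75, edgeR adjusted p = 0.457), and it was the 1 gene of the 4 whose groups separated, with 8.89% of tested genes separated in that direction and 8.54% in the other. C1qb was 0.775-fold (log2 -0.37, 95% interval -0.87 to 0.14) and C1qc 0.845-fold (log2 -0.24, 95% interval -0.75 to 0.26). C3 was 0.718-fold, with a log2 interval of -1.96 to 1. None of the 4 passed the threshold, and edgeR called 0 of all tested genes (0%), with 2121 at an unadjusted p under 0.05, while DESeq2 called 627 and limma-voom 1. Without the 3 libraries that stood apart, C1qb averaged 47.2 CPM after Nano-patrol+NIR and 74.6 CPM after rt-PA (edgeR adjusted p = 0.00259). C1qc averaged 46.2 CPM after Nano-patrol+NIR and 66.9 CPM after rt-PA (0.00258, edgeR adjusted), and C3 11.3 CPM after Nano-patrol+NIR and 35.8 CPM after rt-PA (0.000135, edgeR adjusted). C1qa was at 80.3 CPM after Nano-patrol+NIR and 71.2 CPM after rt-PA (edgeR adjusted p = 0.331). This fit called 40.5% of all genes, 21.2% as lower in Nano-patrol+NIR. The comparisons share groups, so their values for a gene are not independent.

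**Figure D2:**
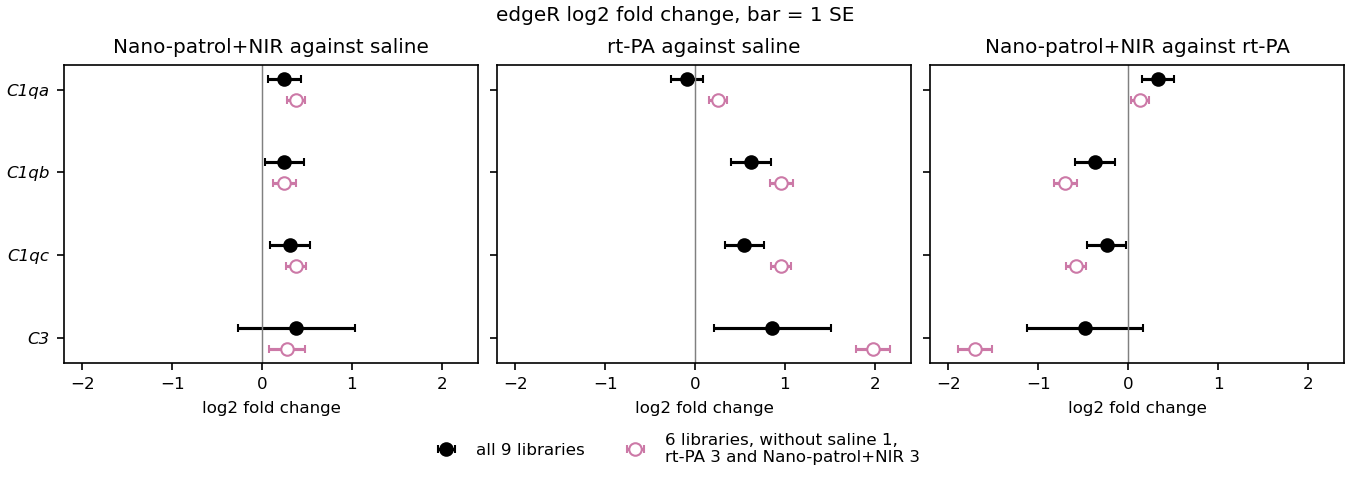
edgeR log2 fold change with a bar of 1 SE (horizontal axes) of the 4 genes in the 3 comparisons, from all 9 libraries (filled) and from the 6 that did not stand apart (open). For rt-PA against saline, C1qb, C1qc and C3 lie at 0.62, 0.55 and 0.86 with all libraries and at 0.96, 0.96 and 1.98 with 6.

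The proportions of the C1q chains separated the rt-PA libraries from all others. C1qa made up 46.1%, 46.4% and 43.7% of the summed counts of the 3 chains in Nano-patrol+NIR 1, 2 and 3, and 35.2%, 32% and 38.1% in rt-PA 1, 2 and 3. In saline 1, 2 and 3 it made up 47%, 44.8% and 45.3%. The highest rt-PA share, in rt-PA 3, had a 95% Wilson interval of 36.1% to 40.2% for counting error alone, and the lowest share elsewhere, in Nano-patrol+NIR 3, an interval of 41.9% to 45.5%. The means were 45.4% ± 1.48 in Nano-patrol+NIR, 35.1% ± 3.05 in rt-PA and 45.7% ± 1.15 in saline (SD, n = 3 each). With the alike pairs alone they were 46.2%, 33.6% and 45% for Nano-patrol+NIR, rt-PA and saline, so the shares were as far apart without the libraries that stood apart. No test over libraries was made for this share, and its separation was noticed in the values themselves. Between 2 single groups, 3 against 3 libraries cannot give an exact p below 0.1. That limit does not cover rt-PA against both other groups together, for which no exact p was computed. How often shares among other genes separate a group from the rest was not counted, so whether this separation is unusual is not known. A share of counts also depends on transcript length, so these shares compare libraries and do not give the numbers of each transcript.

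The chains were also set against each other in pairs. There were 1.66 ± 0.0757 counts of C1qa per count of C1qb in Nano-patrol+NIR, 1.04 ± 0.168 in rt-PA and 1.65 ± 0.153 in saline (SD, n = 3 each). Per count of C1qc, there were 1.67 ± 0.116 of C1qa in Nano-patrol+NIR, 1.13 ± 0.121 in rt-PA and 1.74 ± 0.085 in saline (SD, n = 3 each). C1qb per count of C1qc stood at 1.01 ± 0.0214 in Nano-patrol+NIR, 1.09 ± 0.0643 in rt-PA and 1.06 ± 0.119 in saline (SD, n = 3 each). Its range in saline, 0.955 to 1.19, covered those of Nano-patrol+NIR (0.983 to 1.02) and rt-PA (1.04 to 1.16). The ranges of Nano-patrol+NIR and rt-PA did not overlap each other, and how often ratios of other genes separate these groups was not counted. The sources used here do not state a strand setting, so reads of a gene and of any antisense partner cannot be told apart.

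**Figure D3:**
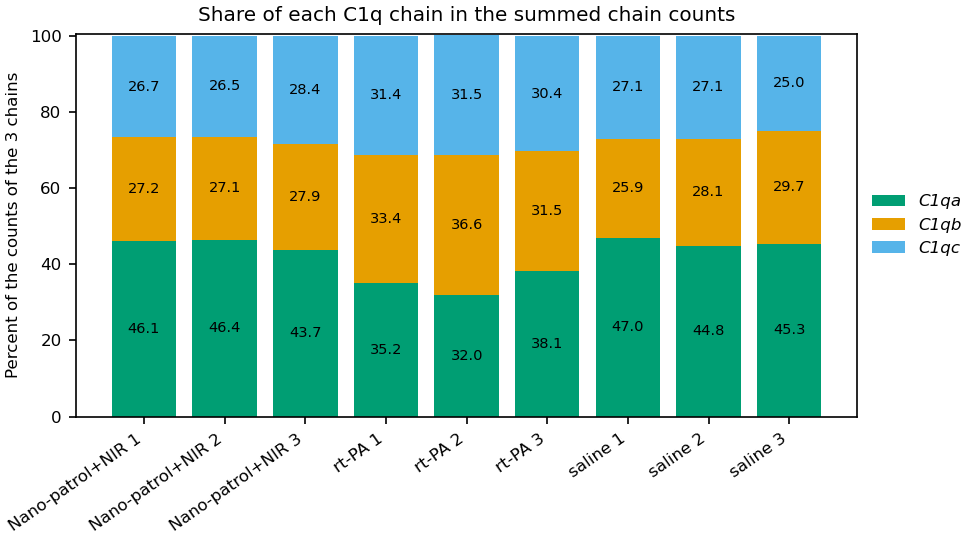
Stacked percent of the summed counts of C1qa, C1qb and C1qc (vertical axis) in each of the 9 libraries, with the share of each chain written in its bar. The C1qa part is 32% to 38.1% in the rt-PA libraries, and 43.7% to 47% in the Nano-patrol+NIR and saline libraries.

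C3 was also set against the chains within each library. The counts of C3 came to 7.43%, 5.62% and 19% of the summed chain counts in Nano-patrol+NIR 1, 2 and 3, and to 15.9%, 17.7% and 9.61% in rt-PA 1, 2 and 3. In saline 1, 2 and 3 they came to 15.4%, 7.88% and 5.91%. These ratios overlapped between all groups and were highest in Nano-patrol+NIR 3.

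Across the 9 libraries, C1qb and C1qc varied together on log2 CPM at r = 0.96 (Spearman rho = 1). In an exact permutation test of the pairings, adjusted over the 6 pairs of genes, p was 1.65e-05 for r and 3.31e-05 for rho. Libraries were exchanged regardless of group, so differences between the groups enter these p-values and those below. C3 followed C1qc at r = 0.9 (rho = 0.83, exact permutation adjusted p = 0.00157 for r and 0.0165 for rho) and C1qb at r = 0.81 (rho = 0.83, exact permutation adjusted p = 0.00508 for r and 0.0165 for rho). Leaving out rt-PA 1 and rt-PA 2, the libraries farthest from the median of the first gene, gave r = 0.94 for C1qb with C1qc, 0.84 for C1qc with C3 and 0.73 for C1qb with C3. C1qa correlated with C1qb at r = 0.31 (rho = 0.55), with C1qc at 0.46 (rho = 0.55) and with C3 at 0.46 (rho = 0.33). Their exact permutation adjusted p-values were 0.417, 0.256 and 0.256 for r, and 0.159, 0.159 and 0.385 for rho. Leaving out rt-PA 3 and saline 2, those of C1qa became -0.17 with C1qb, 0.15 with C1qc and 0.3 with C3.

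With the group means removed, C1qa did follow the other chains. Its deviations then correlated at 0.83 with C1qb, 0.93 with C1qc and 0.83 with C3, as a description over 9 libraries. For the other pairs the values were 0.93 (C1qb with C1qc), 0.78 (C1qb with C3) and 0.92 (C1qc with C3). All libraries carry the same tissue and protocol labels. In the 6 libraries left without those that stood apart, the same deviations of C1qa correlated at 0.77 with C1qb, 0.44 with C1qc and -0.43 with C3. With 2 libraries per group, the deviations within a group are equal and opposite. These values therefore rest only on the difference within each pair and carry little information. In these 6 libraries the raw correlations were 0.98 for C1qb with C1qc, 0.94 for C1qb with C3 and 0.94 for C1qc with C3 (exact permutation adjusted p = 0.00833, 0.0278 and 0.0278). Spearman rho was 1 for C1qb with C1qc (exact permutation adjusted p = 0.0167) and 0.71 for either with C3, which did not pass (exact permutation adjusted p = 0.272). The raw r values of C3 rested on rt-PA 1 and rt-PA 2 there, since 4 libraries without them gave 0.26 with C1qb and 0.58 with C1qc. With the group means removed, r in the 6 libraries was 0.9 for C1qb with C1qc, 0.18 for C1qb with C3 and 0.44 for C1qc with C3. These too rest on the difference within each pair.

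**Figure D4:**
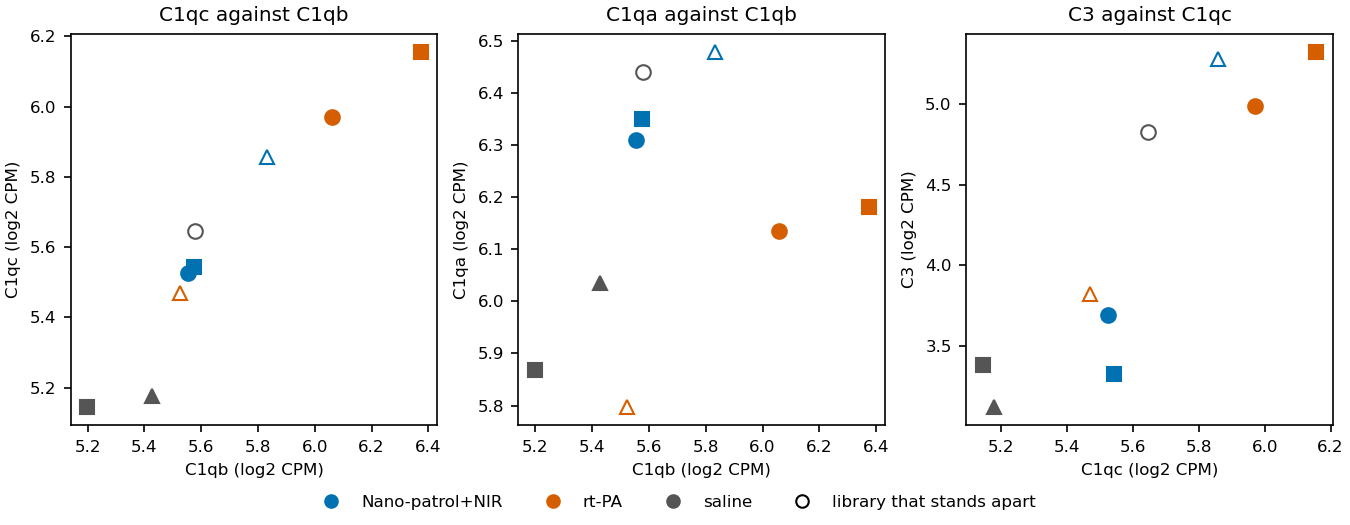
Log2 CPM of C1qc against C1qb, C1qa against C1qb and C3 against C1qc in the 9 libraries, coloured by group, with open symbols for Nano-patrol+NIR 3, rt-PA 3 and saline 1. C1qb and C1qc lie along a line (r = 0.96), whereas in the plot of C1qa (r = 0.31) rt-PA 1 and rt-PA 2 have the highest C1qb but middle values of C1qa, and rt-PA 3 has the lowest C1qa.

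Likeness was also ranked against all 11860 other genes averaging at least 5 CPM, by r over the 9 libraries. C1qb was the gene ranked 12 in likeness to C1qc, and C1qc ranked 14 in likeness to C1qb. C3 ranked 145 for C1qc (1.21% of genes more alike) and 772 for C1qb (6.5%). For C1qa, C1qc ranked 1238 and C1qb 2460, with 10.4% and 20.7% of genes more alike. The genes most like the mean of the 3 chains were ENSRNOG00000021084 (r = 0.97) and ENSRNOG00000024849 (r = 0.967), and 63 of 11857 genes (0.531%) exceeded an r of 0.9. ENSRNOG00000008936 (r = 0.969) and ENSRNOG00000000456 (r = 0.968) were most like C3, for which 92 genes (0.776%) exceeded 0.9. No symbol was at hand for these identifiers. Other complement genes, receptors and regulators were listed by symbol and were not analysed here.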

How the data were processed

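RNA from rat brain was selected by its poly(A) tail and sequenced, per the labels' protocols. Tools named without roles in the submitters' processing notes are StringTie 1.3.1, HISAT2, Bowtie2 2.2.8 and fastp 0.18.0. How reads were counted, with which strand setting, build and annotation, is not stated there. The values as deposited by the authors are whole-number counts per Ensembl gene, not normalized. Groups came from sample titles, and the uk columns were matched to rt-PA through the sample descriptions.

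In R 4.3.3, edgeR 4.0.16 kept 15402 of 32623 genes (filterByExpr), scaled by TMM and fitted all 9 libraries with a mean for each group, leaving 6 residual degrees of freedom. The robust quasi-likelihood F test was adjusted by Benjamini-Hochberg over all tested genes, with a threshold of 0.05. Standard errors are the log2 fold change over the square root of F. Log2 CPM used a prior count of 2. Correlations were tested over all pairings. Alternatives were DESeq2 1.42.0, limma-voom (limma 3.58.1), other scalings and filters, fewer libraries and the replicate block. The tests were run on simulated counts with planted changes, and only the direction of the largest changes had to come out right. No simulated library stood apart from its group. The simulation therefore does not show how the tests behave with such libraries or with small fold changes. Named besides the 4 genes are the 2 most alike of at least 5 mean CPM for the chains and for C3. Gene lists written as symbols were not tested, since 0 identifiers could be paired. The members, lists and alternatives were chosen with earlier results of these data known.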

Additional observations from a re-analysis of the deposited data

How the results depend on the processing

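Over 18 alternatives per gene and comparison, C1qa passed the threshold in 0, and none of the 4 genes passed for Nano-patrol+NIR against saline. C1qb passed without rt-PA 3 alone, for rt-PA against saline. C1qb, C1qc and C3 passed without rt-PA 3, saline 1 and Nano-patrol+NIR 3 together, and in no other alternative did any of the 4 pass. Without all 3, the log2 fold changes called for rt-PA against saline were 0.96 (C1qb), 0.96 (C1qc) and 1.98 (C3), and for Nano-patrol+NIR against rt-PA -0.7 (C1qb), -0.58 (C1qc) and -1.7 (C3), while C1qa for rt-PA against saline turned to 0.25. Leaving out 1 library at a time gave -0.19 to 0.13 for C1qa (above 0 without saline 1, and at 0.05 without rt-PA 3), 0.41 to 0.84 for C1qb (called without rt-PA 3), 0.4 to 0.77 for C1qc and 0.54 to 1.64 for C3 in rt-PA against saline. C3 in Nano-patrol+NIR against saline ran from -0.48 (without Nano-patrol+NIR 3) to 1.14. In Nano-patrol+NIR against rt-PA, C3 ran from -1.37 to -0.16. The cause was not tested. DESeq2, limma-voom, other scalings and filters, and the 6 libraries compared changed no call or direction of the 4 genes. Under no scaling did the median over all genes lie more than 0.05 from 0 (log2).

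Genes called by edgeR numbered 1 for Nano-patrol+NIR against saline, 1 for rt-PA against saline and 0 for Nano-patrol+NIR against rt-PA. In the same order DESeq2 called 132, 1062 and 627, limma-voom 0, 0 and 1 (776, 2354 and 1877 at an unadjusted p under 0.05), and the 6 libraries compared 3, 0 and 0. Without the 3 libraries the counts were 501, 6710 and 6195. Leaving out 1 library gave 0 to 35, 0 to 2112 and 0 to 2047, each highest without rt-PA 3. The replicate block called 0, 0 and 0 (741, 2279 and 1865 at an unadjusted p under 0.05) and no complement gene, with C1qb for rt-PA against saline at an edgeR adjusted p of 0.334. Same-numbered libraries' deviations from their group means correlated at -0.362 to 0.278, over 0.1 in 5 of 9 pairs. Of the 9 libraries, 2 were closest to one of their own number. The libraries that stood apart enter these deviations and do not all carry the same number. The check therefore cannot decide whether the numbers pair the samples, and the main fit did not pair them.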
